A study of Mus musculus with 44 samples.

Results

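The regions described here are 610 stretches of chromatin that carried a peak of H3K27ac in both GDF9-treated libraries of Smad3 PA/PA granulosa cells and in neither vehicle library. They were chosen by those 4 peak lists: peaks of the 2 GDF9 lists that overlapped were merged, and a merged region was kept when no base of it fell in a vehicle peak. The 610 regions are 2.99% of the 20417 merged regions of the GDF9 lists, and the other 19807 are called shared regions below. The mirror rule, with the treatments exchanged, gave 1261 regions only with vehicle, 5.91% of 21336.

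Granulosa cells came from ovaries of PMSG-primed female mice aged 3 to 4 weeks on a mixed C57BL/6J and 129S5/SvEvBrd background, were pooled from 8 mice, cultured for 4 days and given recombinant mouse GDF9 or vehicle for 4 h. The Smad3 PA/PA line carries a PA tag at the N terminus of SMAD3 on both alleles, and the Smad2 HA/+ line an HA tag at the C terminus of SMAD2 on 1 allele, so GDF9 and vehicle cells of a line share its tag. CUT&RUN, in which a nuclease cuts chromatin at an antibody's target, was run with 2 libraries per antibody and treatment, and the RNA-seq comprised 2 GDF9 and 2 vehicle libraries of Smad3 PA/PA cells. The study's methods speak of pooled biological replicates and do not say which libraries came from separate pools, so the p-values below rest on a spread between libraries that may be technical in part.

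GDF9 is a growth factor of the TGF-beta family that the oocyte secretes and the surrounding granulosa cells receive. Its receptors phosphorylate SMAD2 and SMAD3, which join SMAD4, enter the nucleus and bind DNA, often at the short SMAD box. H3K27ac, acetylation of lysine 27 of histone H3, marks active promoters and enhancers, and in granulosa cells near ovulation such elements lie at genes of cumulus expansion, of steroid synthesis and of the extracellular matrix.

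Named members are shown first by the DNA at their centers. The 5 windows of 200 bases below are the first members, in the order of the naming rule, whose central window held a SMAD motif and no annotated exon. Capitals mark the SMAD box CAGAC on either strand, the GC-rich SMAD site GGCGCC, and the AP-1 site TGANTCA. They lie at chr2:73003816-73004015, chr4:130519732-130519931, chr5:32346215-32346414, chr13:11781558-11781757 and chr1:7398103-7398302 of mm10 (GRCm38), plus strand.
Region near Sp3os: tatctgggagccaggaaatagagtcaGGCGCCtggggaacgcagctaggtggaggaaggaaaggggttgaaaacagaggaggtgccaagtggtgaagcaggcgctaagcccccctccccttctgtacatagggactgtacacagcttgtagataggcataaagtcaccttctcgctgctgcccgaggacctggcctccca
Region near Nkain1: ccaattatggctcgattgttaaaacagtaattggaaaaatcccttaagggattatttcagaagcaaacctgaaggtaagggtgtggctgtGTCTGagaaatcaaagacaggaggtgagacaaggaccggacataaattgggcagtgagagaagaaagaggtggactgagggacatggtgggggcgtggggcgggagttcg
Region near Gm36840: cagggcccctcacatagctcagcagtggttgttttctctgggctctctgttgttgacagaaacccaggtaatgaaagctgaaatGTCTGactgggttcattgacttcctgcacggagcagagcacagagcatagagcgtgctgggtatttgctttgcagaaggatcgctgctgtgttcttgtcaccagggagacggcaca
Region in Ryr2: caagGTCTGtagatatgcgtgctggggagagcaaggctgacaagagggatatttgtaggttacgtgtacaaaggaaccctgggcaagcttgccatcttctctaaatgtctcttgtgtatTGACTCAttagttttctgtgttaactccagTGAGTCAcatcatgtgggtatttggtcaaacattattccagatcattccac
Region at Gm26901: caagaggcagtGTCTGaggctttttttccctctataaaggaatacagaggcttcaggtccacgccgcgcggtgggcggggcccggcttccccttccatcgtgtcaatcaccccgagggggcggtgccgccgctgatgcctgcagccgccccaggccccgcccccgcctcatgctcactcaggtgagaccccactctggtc

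A further pair of sequences belongs to members whose linked gene was called in the RNA, and was chosen after those values were seen. The first is the center of a member in an intron of Nfat5, chr8:107328959-107329158 on the plus strand, which holds none of the 3 motifs. The second is the 250 bases before the start site of Fzd1 in RefSeq (GRCm38.p6), chr5:4758217-4758466 on the minus strand, all of it inside a member.
Region in Nfat5: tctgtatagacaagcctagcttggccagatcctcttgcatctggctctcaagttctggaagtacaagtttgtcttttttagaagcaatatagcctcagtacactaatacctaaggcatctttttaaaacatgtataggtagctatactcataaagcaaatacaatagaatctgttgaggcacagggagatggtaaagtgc
Fzd1 promoter: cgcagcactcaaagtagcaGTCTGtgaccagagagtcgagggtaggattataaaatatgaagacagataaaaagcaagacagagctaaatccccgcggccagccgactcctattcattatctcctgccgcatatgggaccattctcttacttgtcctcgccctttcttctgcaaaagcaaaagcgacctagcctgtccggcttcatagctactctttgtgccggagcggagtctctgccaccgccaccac

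The SMAD box occurred in the central 400 bases of 377 members, or 61.8%, beside 61.9% of all 20417 regions of the GDF9 lists in windows of the same length. GGCGCC occurred in 6.56% of members and 5.87% of all regions, and the palindrome GTCTAGAC in 0.328% and 0.456%. AP-1 sites (TGANTCA) were found in 18.4% of members beside 16.1% of all regions, and the TEAD word GGAATG in 24.9% beside 20.9%. The CRE word TGACGTCA occurred in 0.164% of members and 0.632% of all regions, and the NR5A word AAGGTCA in 8.53% and 9.14%. The word TGTTTAC of FOX factors occurred in 5.74% and 6.22%, and AGATAA, a word of the GATA factors, in 19.8% and 21.5%. Homeobox TAATTA, RUNX TGTGGTT, ETS CCGGAAG and E-box CANNTG differed by less than 1.5 percentage points from all regions. Both strands were searched, and a match says only that the letters are there.

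The members were low H3K27ac regions. Peak heights in each list came in whole multiples of 1 step of the spike-in-scaled coverage (99.99% or more of peaks of the 4 Smad3 PA/PA H3K27ac lists, within 0.02 of a step), where 1 step was 1.13 in GDF9 replicate 1 and 1.79 in GDF9 replicate 2. A member's highest signal had a median of 9 steps in both GDF9 libraries, with a lowest value of 5 in both and a highest of 18 and 19. Shared regions had a median of 13 steps in both. The 10.2 and 16.1 units of scaled signal at the median member correspond to the 23.1st and 24.5th percentile of all peaks of the 2 lists. These heights come from the lists that chose the members and are a description.

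Members lay close in height to the regions that the rule left out by the narrowest margin. The 2085 shared regions that overlapped a peak of only 1 vehicle list had medians of 10 and 9 steps, whereas the 17722 that overlapped both had 14 and 14. Just inside the rule, 12 members lay within 100 bases of a vehicle peak, the nearest at 2 bases, with medians of 7.5 and 8.5 steps. Just outside it, 5 shared regions had at most 100 bases in common with a vehicle peak, the smallest overlap being 6 bases, with medians of 9 and 10 steps. In all, 87 members lay within 1 kb of a vehicle peak, 249 lay more than 10 kb from one and 46 more than 100 kb.

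**Figure D1:**
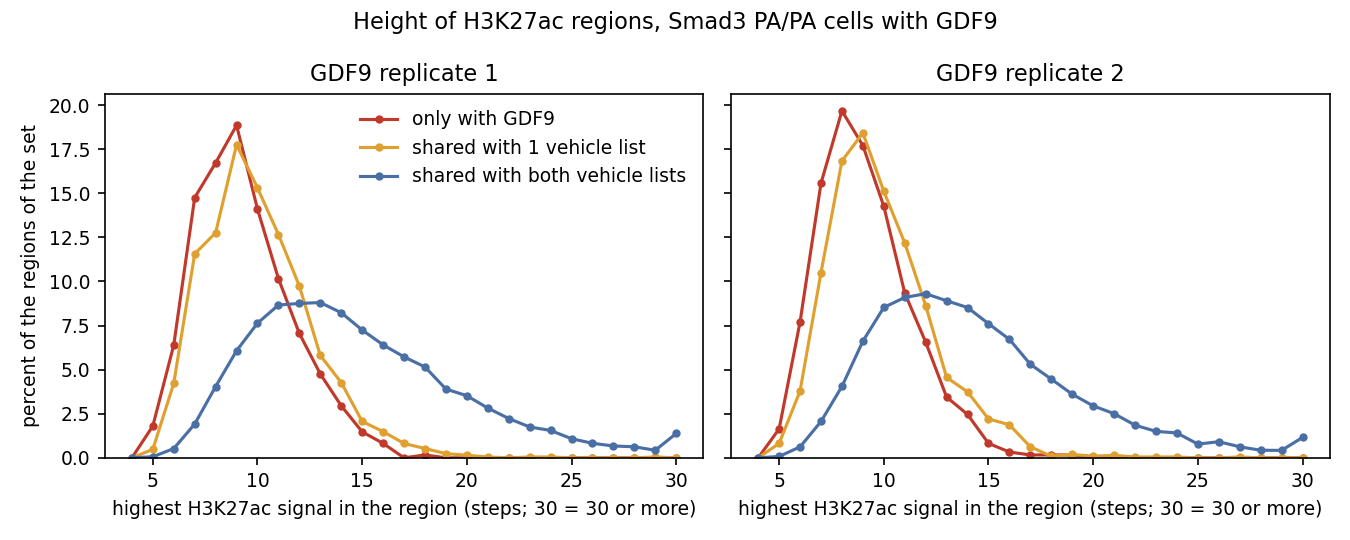
Height of H3K27ac regions in each GDF9 library of Smad3 PA/PA cells, as the highest signal in steps (x axis) against the percent of the regions of a set (y axis); lines join the shares at each whole step. Members (red) and regions shared with 1 vehicle list (yellow) peak between 8 and 9 steps, below regions shared with both vehicle lists (blue).

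The number of members depended on each of the 4 lists. Without GDF9 replicate 1 or 2, 2636 and 2555 regions met the rule, and without vehicle replicate 1 or 2, 1555 and 1750 did. With the GDF9 lists limited to the 50% of peaks with the highest signal 25 regions remained, and with the vehicle lists limited in that way 4460 did. Whether a region was absent with vehicle or below the peak limit there cannot be told from peak lists.

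Members had a median length of 2922 bases (1383 to 9786), against 4101 for shared regions and 3393 for regions only with vehicle. An annotated start site lay inside 128 members, or 21.0%, compared with 40.5% of shared regions and 11.5% of regions only with vehicle. A further 31 members lay within 3 kb of a start site, 167 touched an exon, 76 a first intron and 95 another intron, and 113 were intergenic. Members with a start site inside were rich in G and C, with a median of 55.8% and 17 CpG in the central 400 bases, whereas exonic members had 44.5% and 4 CpG. Members were scattered, since 44 of 610 had another member within 50 kb and no run held more than 2.

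**Figure D2:**
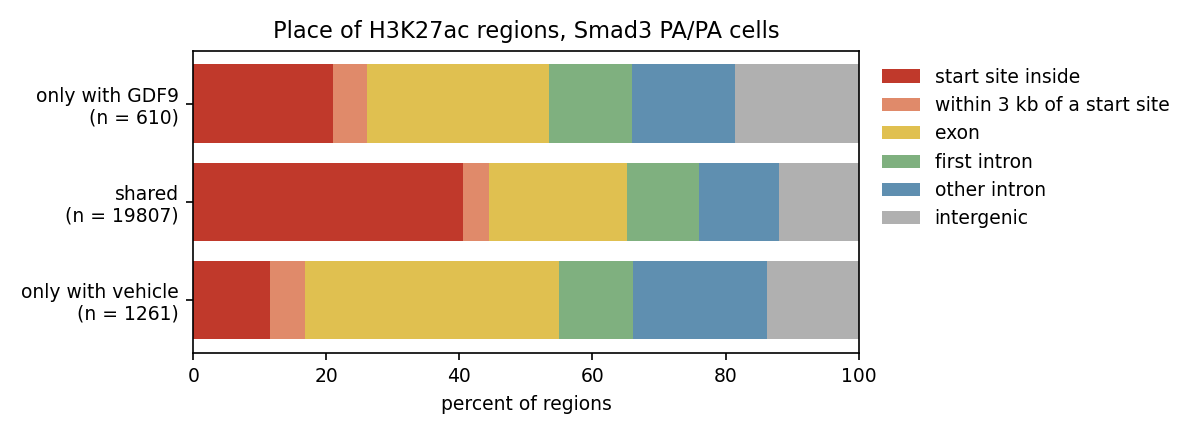
Place of H3K27ac regions of Smad3 PA/PA cells relative to genes, as stacked shares (x axis, percent of regions) for the regions only with vehicle, the shared regions and the members (y axis, with the number of regions). The share with a start site inside is 21.0% in members, between 11.5% in regions only with vehicle and 40.5% in shared regions.

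Members made up a larger share of the regions of the X chromosome than of any autosome. It carried 26 of the 610 members and 270 of all regions of the GDF9 lists, so that 9.63% of its regions were members, compared with 1.78% to 3.81% on the autosomes. Of its 275 regions in both vehicle lists, 21 or 7.64% were only with vehicle, within the 4.60% to 8.13% of the autosomes. X regions were low in general: shared regions on X had medians of 11 steps in both GDF9 libraries, against 13 to 14 and 13 on the autosomes, and 17.2% of shared X regions overlapped only 1 vehicle list, compared with 10.5% of all shared regions. The part of height in this excess was not tested, and chromosomes are no replicates. Of the 26, 12 held a start site, among them those of Smc1a, a cohesin subunit, Rps6ka3, a kinase of the MAPK pathway, Araf, a RAF kinase, and Pdk3, a kinase of pyruvate dehydrogenase.

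**Figure D3:**
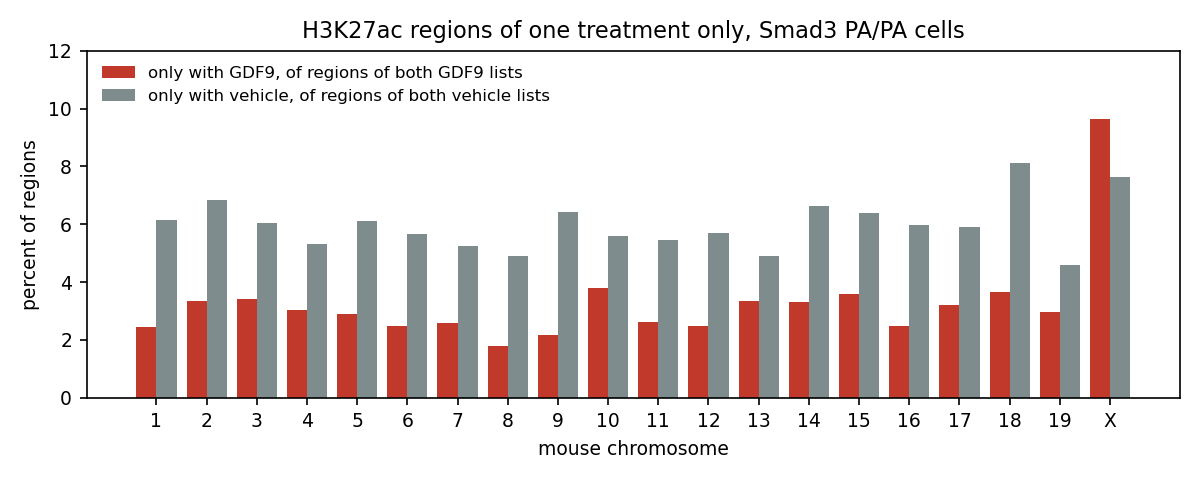
Percent of H3K27ac regions found with 1 treatment only (y axis) on each mouse chromosome (x axis) in Smad3 PA/PA cells, for regions only with GDF9 (red) and only with vehicle (grey). The red bar of X stands at 9.63%, above the 1.78% to 3.81% of the autosomes, while its grey bar is within their range.

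The highest members by mean rank of their signal in both GDF9 lists were a mixed group. The first lay between genes at chr2:73002916-73004915, 15675 bases from the start of Sp3os and 22470 bases from that of Sp3, a zinc finger transcription factor, with 16 and 15 steps. Those at the start sites of Ntpcr (15 and 15 steps) and of the zinc finger gene Gm14325 (15 and 14 steps) followed, with a region between genes near 1810024B03Rik (14 and 16 steps). Others of the 10 were at or near 0610025J13Rik, Gm9758, C1qtnf1, Nkain1 and Gm36840. Of these 10 regions, 4 held a start site and 4 were intergenic, 3 had H3K27ac peaks in all 4 Smad2 HA/+ lists, and 3 had none there. Of their neighbours within 50 kb, Sp3 had RNA values of 859 and 870.8 with GDF9 and 1069 and 938.3 with vehicle, a log2 fold change of -0.21 ± 0.06 (SE, limma, adjusted p = 0.0464). The GDF9 and vehicle libraries did not overlap at this gene, with GDF9 below, as at 2922 of all 12597 tested genes.

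H3K27ac of the Smad2 HA/+ line, which the rule did not use, was present at most members in both treatments. H3K27ac peaks of the GDF9 libraries covered 80.2% and 78.7% of members, and those of the vehicle libraries 75.6% and 71.8%. The GDF9 libraries were thus higher than the vehicle libraries, with no overlap, by a mean of 5.74 percentage points (exact two-sided permutation test, p = 0.333, which is the smallest that 2 against 2 libraries allow, adjusted p = 0.5 over 3 tests). GDF9 libraries were also higher at shared regions, with 97.2% and 96.4% against 94.7% and 93.2%, and at regions only with vehicle, with 84.5% and 84.1% against 81.8% and 79.4%. Peaks of this line were far broader, with median lengths of 18565 to 29257 bases in the 4 lists compared with 2940 to 3288 in Smad3 PA/PA cells, so a member could lie in a broad peak without a summit of its own.

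Of the 610 members, 386 overlapped a peak in all 4 Smad2 HA/+ lists and 83 in none. Those in none were 13.6% of members, beside 1.545% of shared regions and 9.83% of regions only with vehicle. Peaks in both GDF9 lists and no vehicle list, the pattern of the rule, were found at 21 members or 3.44%, where the share among all 20417 regions was 1.44%. The opposite pattern was found at 3 members or 0.492%, where the share among all regions was 0.122%, and regions only with vehicle had 2.46% and 0.555% for the 2 patterns. Both shares were above those of all regions, a difference that was not tested, and 63.3% of members but 91.1% of shared regions had peaks in all 4 lists. Of the 21 members, 14 were in introns or between genes and 5 (23.8%) over a start site, beside 21.0% of all members. The highest of them were an intron of Rbms3, an RNA-binding protein gene, at chr9:117015954-117018240 (13 and 14 steps), and an intron of Ryr2, the calcium release channel gene, at chr13:11780422-11782893 (12 and 12 steps). The latter window, shown above, held 1 SMAD box and 2 AP-1 sites. Further ones lay 12697 bases from the start of Fut8, a fucosyltransferase gene, 27094 bases from that of Notch1, the receptor, and over that of Ahi1. RNA of Fut8 was 535.7 and 585.4 with GDF9 and 669.6 and 610.5 with vehicle, that of Notch1 86.6 and 61.0 against 78.1 and 64.7, and that of Ahi1 223.6 and 229.3 against 235.4 and 254.3, and none of the 3 passed the test.

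SMAD peaks of Smad3 PA/PA cells were found at fewer members than shared regions, with either treatment. SMAD2 peaks lay at 11.6% and 10.2% of members with GDF9 and at 9.34% and 1.97% with vehicle, while the shared regions had 24.7% and 24.96% against 22.1% and 5.14%. The low vehicle library had a short list, with 23082 peaks against 78699 to 81283 in the other 3 SMAD2 lists of the line, and it was low at members and shared regions alike. SMAD4 peaks lay at 26.2% and 20.7% of members with GDF9 and at 25.4% and 24.1% with vehicle, so that the treatments overlapped. Peaks of PA, the tag of SMAD3, were rarer, at 4.92% and 4.10% with GDF9 and 4.75% and 6.56% with vehicle, and overlapped as well.

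To take out the number of peaks of each list, the share of members with a peak was divided by the share of shared regions with a peak in the same library. On the log2 scale this ratio was lower than 0 in all 12 libraries, and the mean difference between GDF9 and vehicle was -0.02 (exact two-sided permutation test within antibody, p = 0.815, adjusted p = 0.815 over 3 tests, smallest possible p = 0.00926). By antibody the difference was 0.10 for SMAD2, 0.01 for PA and -0.16 for SMAD4, with overlapping libraries in each. The sign of the mean is not fixed, since it was 0.93 in percentage points of members, 0.19 against regions only with vehicle and -0.06 to 0.03 with any 1 library left out. The 25 members kept when the GDF9 H3K27ac lists were limited to their higher 50% had a difference of 0.49 (exact permutation test, p = 0.0463), a set chosen among alternatives and of few regions. Among regions of 2 to 4 kb the SMAD2 share of the GDF9 libraries was 11.5% and 9.43% in members and 18.8% and 18.6% in shared regions. This gap was narrower than over all lengths, and the part of length in it was not tested.

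**Figure D4:**
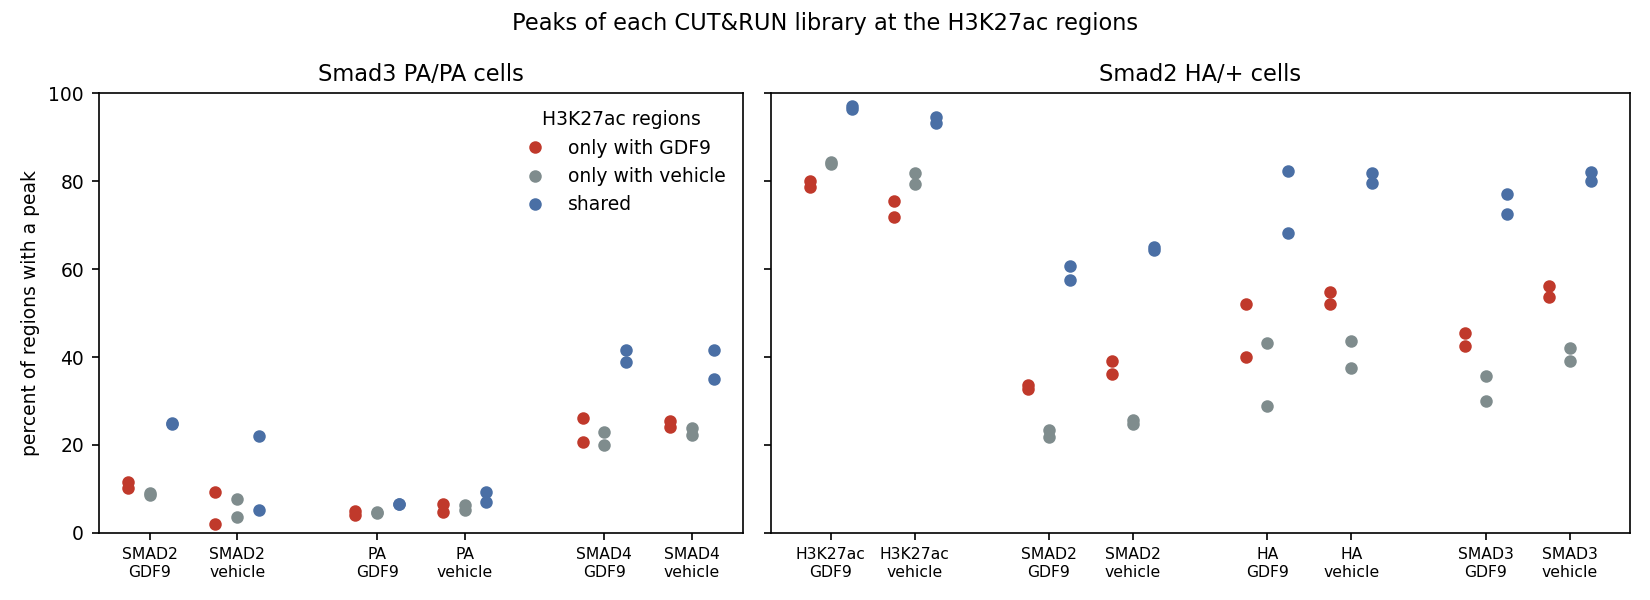
Percent of H3K27ac regions with a peak (y axis) in each CUT&RUN library, by antibody and treatment (x axis), in Smad3 PA/PA cells (left) and Smad2 HA/+ cells (right); each point is 1 library, and colors give the members (red), the regions only with vehicle (grey) and the shared regions (blue). Red points lie below blue ones of the same library throughout, and above grey ones for all SMAD and HA libraries of Smad2 HA/+ cells.

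Counted per region, SMAD2 peaks in both GDF9 lists and no vehicle list were found at 14 members, or 2.30%, beside 4.32% of all 20417 regions, and the opposite at 3 members, or 0.492%, beside 0.392%. For SMAD4 the same counts were 16 members, or 2.62%, beside 4.02%, and 22 members, or 3.61%, beside 3.52%. For PA they were 3 members, or 0.492%, beside 0.637%, and 0 members, beside 0.744%. For each antibody the share of members with a peak in both GDF9 lists and no vehicle list was below that of all regions. These counts do not take out that members had fewer peaks of each antibody in general. With GDF9, mean shares for SMAD2, PA and SMAD4 were 10.9%, 4.51% and 23.45% of members, against 24.85%, 6.495% and 40.26% of shared regions. Whether GDF9-only peaks were fewer among members that had a peak was not tested. In all, 32 members had such a GDF9-only peak for at least 1 antibody and 1 for more than 1, counts that were not made over all regions. That member, chr1:183388047-183391171 over the start of Taf1a, a subunit of the RNA polymerase I selectivity factor, had GDF9-only peaks of SMAD2 and SMAD4, and RNA of 112.8 and 114.2 with GDF9 against 81.5 and 109, which did not pass the test. The SMAD2 members included the start sites of Nuf2, a kinetochore protein gene, Smg9, a nonsense-mediated decay gene, Oaz1, an inhibitor of polyamine synthesis, Irak4, a kinase of Toll-like receptor signaling, and Cnpy3, and none of these genes passed the RNA test.

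At least 1 of the 6 SMAD2, PA and SMAD4 lists had a peak at 327 members (53.6%) with GDF9 and at 310 (50.8%) with vehicle, beside 72.2% and 68.9% of shared regions. Peaks in all 6 lists with GDF9 were found at 1 member, or 0.164%, beside 0.439% of shared regions. This member, chr5:14906427-14908572 near Gm9758, also had peaks in 5 of the 6 vehicle lists. Gm9758 lies near Speer4e, of a gene family with near-identical copies on this chromosome, so placement of reads there is uncertain, and both genes had RNA values below 2 in every library.

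In Smad2 HA/+ cells, where SMAD lists reached more of the H3K27ac regions, members had fewer SMAD peaks with GDF9 than with vehicle for 2 of 3 antibodies. Native SMAD3 peaks lay at 42.6% and 45.6% of members with GDF9 and at 53.6% and 56.2% with vehicle, without overlap. Native SMAD2 peaks lay at 33.6% and 32.8% with GDF9 and at 36.2% and 39.0% with vehicle, also without overlap. HA peaks lay at 40.0% and 52.0% with GDF9 and at 52.0% and 54.9% with vehicle, the GDF9 libraries reaching the lower vehicle library. Shared regions were lower with GDF9 as well: their SMAD3 shares were 72.7% and 77.1% against 80.1% and 82.2%.

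Relative to shared regions, the mean difference between GDF9 and vehicle was -0.12 on the log2 scale (exact two-sided permutation test within antibody, p = 0.0278, adjusted p = 0.0834 over 3 tests, smallest possible p = 0.00926), which did not pass after adjustment. By antibody it was -0.20 for SMAD3 and -0.12 for HA, with no overlap of the libraries, and -0.05 for SMAD2, with overlap. Against regions only with vehicle in place of shared regions it was -0.02 (exact permutation test, p = 0.685). Exchanging treatments only within the same replicate number, the replicate block, left the value at -0.12 (exact permutation test, p = 0.0625, smallest possible 0.0312), and without GDF9 SMAD2 replicate 2 it was -0.10 (exact permutation test, p = 0.0556).

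Counts per region in this line were above those of all regions in both directions for SMAD2 and SMAD3, and for HA with vehicle alone. Peaks in both vehicle lists and no GDF9 list were found at 30 members, or 4.92%, for SMAD3, beside 2.92% of all regions, at 26 members, or 4.26%, for SMAD2, beside 3.55%, and at 19 members, or 3.11%, for HA, beside 1.92%. Peaks in both GDF9 lists and no vehicle list were found at 6 members, or 0.984%, for SMAD3, beside 0.71%, at 16 members, or 2.62%, for SMAD2, beside 1.64%, and at 4 members, or 0.656%, for HA, beside 0.916%.

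Members exceeded regions only with vehicle in the share with a SMAD2, HA or SMAD3 peak in all 12 libraries of Smad2 HA/+ cells, with either treatment. The excess was present with and without a start site: over start sites SMAD3 peaks lay at 71.1% to 85.2% of members and 60.0% to 78.6% of regions only with vehicle, and elsewhere at 35.1% to 48.6% and 26.0% to 37.2%. H3K27ac of this line was the other way outside start sites, with 74.1% to 81.7% of members and 81.9% to 86.7% of regions only with vehicle. These ranges are over 4 libraries, and the differences between the sets were not tested.

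The RNA of genes near the members was then compared. A gene was linked when the start site of any of its annotated transcripts was the nearest to a member and within 50 kb. This gave 496 genes at 505 members and left 105 members without one. Of these genes, 362 had a mean normalized value of at least 10 and were tested with limma on log2(value + 1) among 12597 genes. At an adjusted p below 0.05 and a log2 fold change beyond 0.18, 3 linked genes were higher with GDF9, or 0.829%, where 2.44% of all tested genes were, and 5 were lower, or 1.38%, where 0.707% of all were. Genes linked to shared regions had 2.65% higher and 0.905% lower, and those linked to regions only with vehicle 2.17% and 0.929%. The median log2 fold change of the linked genes was -0.006, as it was over all tested genes. In bulk RNA, fewer cells with a transcript and less RNA per cell cannot be told apart.

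Nfat5, a transcription factor of the response to osmotic stress, rose most among them. Its values were 3138 and 2880 with GDF9 and 2060 and 2137 with vehicle, a log2 fold change of 0.52 ± 0.05 (SE, limma, adjusted p = 1.72e-09), and it was called in all 10 other fits. The member lies in an intron, 7987 bases from the nearest annotated transcript start of the gene, with 8 and 8 steps of H3K27ac. That start is not the 5' end of the gene, which lies at chr8:107293470 on the plus strand. The member lies downstream of it, at chr8:107327298-107330820. Ptgs2, the enzyme that opens prostaglandin synthesis before ovulation, had 8461 and 8231 against 7480 and 7217, a log2 fold change of 0.18 ± 0.04 (limma, adjusted p = 0.00111). Its member, chr1:150104787-150108537 with 8 and 10 steps, covers the 3' part of the gene from 4756 bases after the start. Wdfy3, an adaptor of selective autophagy, had 1526 and 1434 against 1309 and 1255, a log2 fold change of 0.21 ± 0.05 (limma, adjusted p = 0.0163).

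Fzd1, a WNT receptor, fell most. It had values of 189.3 and 186.7 with GDF9 and 264.1 and 256.1 with vehicle, a log2 fold change of -0.47 ± 0.10 (limma, adjusted p = 0.00501). Its member covers the promoter at chr5:4756564-4759121 with 6 and 10 steps. Dync1i1, a dynein intermediate chain gene with a member over its start, had 482.4 and 480.9 against 571.9 and 609.6, a log2 fold change of -0.29 ± 0.07 (limma, adjusted p = 0.0108), and its member was among those with a GDF9-only SMAD4 peak. Nmt2, an N-myristoyltransferase gene, Asap1, an activator of ARF GTPases, and B230219D22Rik were lower by smaller amounts, with log2 fold changes of -0.20, -0.18 and -0.18 and limma adjusted p of 0.0295, 0.0394 and 0.0234. At all 8 genes the GDF9 and vehicle libraries did not overlap, but the calls rest on these same libraries. Both GDF9 libraries were above both vehicle libraries at 74 of the 362 linked genes tested and below them at 95. Over all 12597 tested genes this was so at 2769 and 2922. The calls apart from Nfat5 depended on the fit: with a library left out 1 to 9 linked genes were higher and 2 to 9 lower, with 1 and 2 without vehicle replicate 2, 2 and 2 without vehicle replicate 1, and 9 and 9 without GDF9 replicate 2. Calls over all genes moved in the same fits, from 307 higher and 89 lower to 237 and 53, 190 and 20, and 366 and 220. DESeq2 on the recovered reads called 2 higher and 0 lower and edgeR 4 and 4, while 26 linked genes (7.18%) were higher and 36 (9.94%) lower at an unadjusted limma p below 0.05, beside 8.27% and 7.37% of all tested genes.

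**Figure D5:**
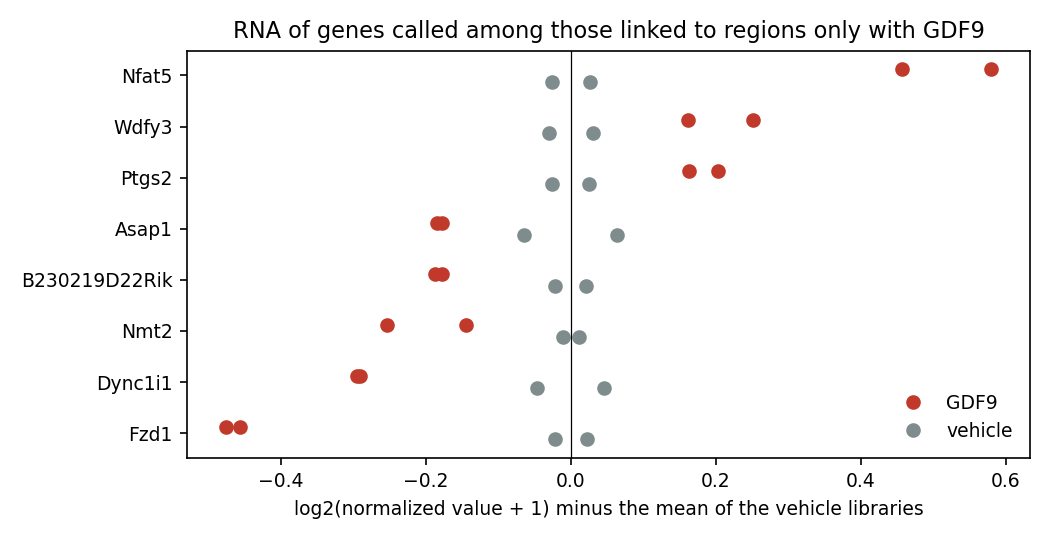
RNA of the 8 called genes among those linked to members (y axis), as log2 of the normalized value plus 1 minus the mean of the vehicle libraries (x axis); each point is 1 library, GDF9 in red and vehicle in grey. The red points of Nfat5, Wdfy3 and Ptgs2 lie right of all their grey points, and those of the other 5 genes lie left.

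Genes of pathways known for GDF9 or ovulation were then looked up among the linked genes. Of 13 gene lists with 283 tested entries, 12 were linked, or 4.24%, beside 2.87% of all tested genes. From the SMAD2/3 feedback and target list Bambi alone, a pseudoreceptor that dampens TGF-beta signals, was linked, by 2 members, 1 of them over its start. Its values were 66.5 and 63.9 with GDF9 and 71.2 and 82.4 with vehicle, and it did not pass, while 4 of the 23 tested genes of that list were higher and 0 lower. From the cumulus expansion and ovulation list Ptgs2 alone was linked, and 3 of its 18 tested genes were higher and 2 lower. The WNT list had 4 linked genes, Fzd1, Lrp6, a coreceptor, and Axin1 and Axin2, scaffolds that limit beta-catenin. Of its 24 tested genes 0 were higher and 2 lower, Fzd1 among them. Axin2 had 866.1 and 858.2 against 910.7 and 918.8 and did not pass. Ccn1, a matrix protein gene and Hippo target, had 7940 and 7677 against 6892 and 7089, with a log2 fold change of 0.16 (limma, adjusted p = 0.00571) under the fold limit. Palld and Tpm2 of the cytoskeleton list, Esr1 and Zfpm2 of the granulosa identity factors and Pfkl of glycolysis were linked and did not pass.

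The lists of immediate early genes (8 of 20 tested higher), extracellular matrix and adhesion (6 of 41 higher and 3 lower), steroid synthesis (3 of 16 higher and 2 lower), TGF-beta family ligands and receptors (0 of 26 higher and 1 lower), MAPK and growth factor feedback (0 of 22 higher and 2 lower), cell cycle (0 of 19 higher and 2 lower) and markers of other ovarian cells (0 of 10 in either direction) had no gene linked to a member. The lists hold chosen genes and do not cover their pathways. Bmp8a, a TGF-beta family ligand, Ccng2 and Cdc25c of the cell cycle, Itga3 and Wnt10b were linked, are in none of the lists and did not pass.

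The 128 members over a start site were each nearest to another gene, of which 116 are protein-coding and 115 were tested. By limma 0 were higher and 2, Fzd1 and Dync1i1, were lower, and at an unadjusted p below 0.05 there were 10 higher and 9 lower. These are 8.70% and 7.83% of the 115, beside 8.27% and 7.37% of all tested genes. Those not called included Auh, a mitochondrial RNA-binding enzyme (100.7 and 115.1 with GDF9 against 142.4 and 143.5), and Dyx1c1, with low values (26.2 and 15.5 against 11.5 and 14.2). The median log2 fold change of the 115 was -0.003, and their median vehicle value was 284.7, against 316 for all tested genes. Among them were Gnas, the stimulatory G protein that relays gonadotropin signals, with 9864 and 9730 against 9745 and 9886, Hmox1, heme oxygenase, with 1223 and 1238 against 1246 and 1348, Wnt10b with 1219 and 1227 against 1137 and 1142, Itga3, an integrin, with 1852 and 1759 against 1820 and 1772, and 8 Zfp genes. These genes were transcribed with either treatment, and none of the 5 named in the preceding sentence passed the test.

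The granulosa label was checked against markers in the RNA. The summed values of 10 granulosa markers were 29745 to 30651 over the 4 libraries, with Inha at 13383 to 14887, while Amh and Cyp19a1 were below 3 in every library. Sums were 178.0 to 231.3 for 4 theca markers, 1463 to 1519 for 4 stromal, 569.7 to 608.3 for 3 surface epithelial and 27.6 to 34.6 for 4 oocyte markers. The theca sum was almost all Ptch1 (176.9 to 228.6), while Cyp17a1, Lhcgr and Insl3 were below 3 in every library. The stromal sum was mostly Col1a1 (1307 to 1357). Macrophage sums (3 markers) were 46.3 to 48.4 with GDF9 and 27.6 to 38.1 with vehicle. Endothelial sums (3 markers) were 19.1 to 25.2 and 27.5 to 28.7, and neither pair overlapped. The macrophage sum was mostly Cd68 (44.3 and 47.4 against 26.4 and 35.4), while Ptprc and Adgre1 were below 3 in every library. Of the endothelial markers, Pecam1 alone had a mean of at least 10 (13.1 and 15.5 against 16.1 and 19.5). The part of these cells in the RNA results was not tested. No marker of these 6 types was called. Of the 10 granulosa markers, Esr2, Fst and Hsd17b1 were called higher with GDF9 and Nr5a2 lower. The granulosa sum was mostly Inha and Inhba (10768 to 12060), so it does not show these changes. RNA depth was 8827825 to 11416005 reads in genes, and the 4 H3K27ac lists that chose the members held 27587 to 29381 peaks.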

How the data were processed

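Per the study's methods, the authors aligned CUT&RUN reads to mm10 with Bowtie2, kept uniquely mapped reads, scaled the coverage signal by E. coli spike-in reads and called peaks in each library with SEACR. The 32 deposited peak lists hold the maximum and total scaled signal of each peak, and whether IgG was the control is not given in the sources used here. The 8 IgG samples were not used here. For RNA, the authors used STAR 2.7.11b, featureCounts 2.1.1 and DESeq2 1.48.2, and the deposited signal is a normalized count per gene. It is a whole number of reads divided by 1 size factor per library. Of the values up to 100 reads, the only ones checked, 100% were whole within 0.05 reads. No source used here gives the strand setting or annotation of the counting, so reads of antisense partners cannot be told apart. The 3 unnamed columns of that table were not used, nor were 1314 of 27179 entries without values.

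Peaks overlapping by at least 1 base were joined, and places were taken from GENCODE vM21 gene models. Shares were tested by exact two-sided permutation of treatments within antibody. For the log2 ratios of SMAD peaks 0.5 was first added to each count, and the H3K27ac shares were tested as percentages with nothing added. RNA was tested with limma 3.58.1 (R 4.3.3) on log2(value + 1), a scale that understates changes of low genes, for mean values of at least 10, with Benjamini-Hochberg adjustment, and scripts were tested on simulated data. Alternatives used edgeR 4.0.16 and DESeq2 1.42.0 on the recovered reads, other pseudocounts, overlaps, filters and links, and libraries left out. The regions named are the 10 highest by mean rank, the 10 highest with GDF9-only H3K27ac in Smad2 HA/+ cells, any with peaks in all 6 SMAD lists, and those with a start site inside. Regions carry the name of the gene with the nearest start site at any distance, which was 52609 bases for Nkain1, 233877 for Rbms3 and 324052 for Ryr2. Other genes named lie within 50 kb of these regions, were called, or are in a gene list. Members with GDF9-only SMAD peaks, and those on X, were picked out after their values were seen. One named region and its gene are not reported here. The members and all lists were chosen with earlier results of these data known.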

Additional observations from a re-analysis of the deposited data

How the results depend on the processing

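The number of regions was 525 and 523 with a 50% mutual overlap of the GDF9 peaks and with no vehicle peak within 1 kb, 25 and 4460 with the GDF9 or the vehicle lists limited to their higher 50%, and 1555 to 2636 with a library left out. H3K27ac of Smad2 HA/+ cells kept its direction in all 10 alternatives, from 3.85 to 7.62 points with a library left out. The SMAD difference in Smad3 PA/PA cells turned to 0.485 in the 25 regions, 0.929 in percentage points and 0.190 against regions only with vehicle, was -0.651 with 50% of the region covered, -0.159 with no vehicle peak within 1 kb and -0.132 for the higher 50% of the tested lists, and ran from -0.059 to 0.026 with a library left out, positive without GDF9 SMAD2 replicate 2 (0.018), GDF9 PA replicate 2 (0.026), GDF9 SMAD4 replicate 2 (0.025) or vehicle SMAD4 replicate 2 (0.012). In Smad2 HA/+ cells it kept its sign in all 19 alternatives but missed the unadjusted limit at -0.091 (25 regions), -0.076 (50% of the region covered), -0.082 (higher 50% of the tested lists) and -0.021 (against regions only with vehicle), with -0.142 to -0.103 for a library left out. The cause was not tested.

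Replicate numbers did not pair the RNA libraries (correlation of deviations 0.018 over 10663 genes, 2 pairs). With a replicate block, the Smad2 HA/+ SMAD difference stayed at -0.122 and missed the limit, and 5 linked genes were higher and 10 lower. Linked genes lower were 1 with no filter on low values, 0 by DESeq2 and 2 for start sites within 3 kb, where 0 were higher. With a library left out, 1 to 9 were higher and 2 to 9 lower. Over all genes, DESeq2 called 112 higher and 16 lower, no filter 161 and 26, and limma 307 and 89. With 2 libraries a group, and peak lists that show no signal below the peak limit, a missing peak is not a missing mark.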
